A study of Mus musculus with 8 samples.

Results

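The genes described here encode the synaptic vesicle release machinery, the proteins that fill, hold, dock, prime and fuse the vesicles of a nerve terminal. The set is a list of 32 gene symbols chosen by function, and each symbol was matched to the probe sets (groups of short DNA probes read as 1 value) that carry it alone. All 32 were measured, among 22180 genes with a probe set of their own, and the brightest probe set stood for each gene. The RNA came from hippocampal neurons of C57BL/6J mouse embryos (E18.5), cultured for 11 days. In 4 of the cultures 55 mM KCl had been present for 4 h, and 4 cultures were untreated. Both groups had the same medium with glutamate and AraC (a drug that kills dividing cells). Each group has replicates numbered 1 to 4, and values are listed below in that order. The labels give every array its own mouse number. They do not say whether that number stands for an embryo, a litter or a culture, so p-values measure the spread between these arrays.

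A synaptic vesicle is loaded with transmitter, tethered near the active zone of the presynaptic membrane, primed, and fused when calcium enters. Fusion is driven by SNARE proteins, which zip the vesicle and plasma membranes together, and it is timed by synaptotagmins, which sense calcium. Depolarisation by potassium opens voltage-gated calcium channels, empties vesicles and starts calcium-dependent transcription in cultured neurons. The arrays ask whether transcripts of this machinery differ after such a stimulus.

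After KCl, Syt4, an atypical synaptotagmin, was 1.94-fold as high as in untreated cultures (95% interval 1.40 to 2.69). It was the member with the smallest p, and its call depended on the fit: the limma adjusted p was 0.0565 as planned and 0.0146 with the replicate number as a block. No other member passed in either fit. In the planned fit 0 of 32 members passed, against 2.36% of all 22180 genes (1.34% higher and 1.02% lower). With the block 1 of 32 passed, as higher, against 2.43% of all genes called higher, 2.01% called lower and 4.44% in either direction. Before adjustment, 3 members (Syt4, Sv2b and Syt5; 9.38%) had a limma p under 0.05, against 13% of all genes. With the block 8 members did (Syt4, Sv2b, Syt5, Sv2c, Slc17a7, Syt2, Stx1a and Rims2), against 18.2%.

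The differences of the members were small in size. The median log2 difference (KCl minus untreated) was -0.06 over the members and -0.01 over all genes, and the median size without sign was 0.11 and 0.12. The members ran between -0.48 for Sv2b and 0.96 for Syt4, with 9 above 0 and 23 below. Of all 22180 genes, 10456 were above 0 and 11724 below. For 26 of the 32 members the 95% interval lay within a 2-fold difference either way, as it did for 87.3% of all genes. It lay within 1.5-fold for 16 members, against 62.2% of all genes. With the block these were 30 members (93% of all genes) and 23 members (71.7% of all genes). Without it, the 6 members whose interval reached past 2-fold were Syn3, Sypl, Sv2c, Slc17a6, Syt4 and Vamp1. In bulk RNA, fewer cells of a type and less RNA per cell cannot be told apart.

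**Figure D1:**
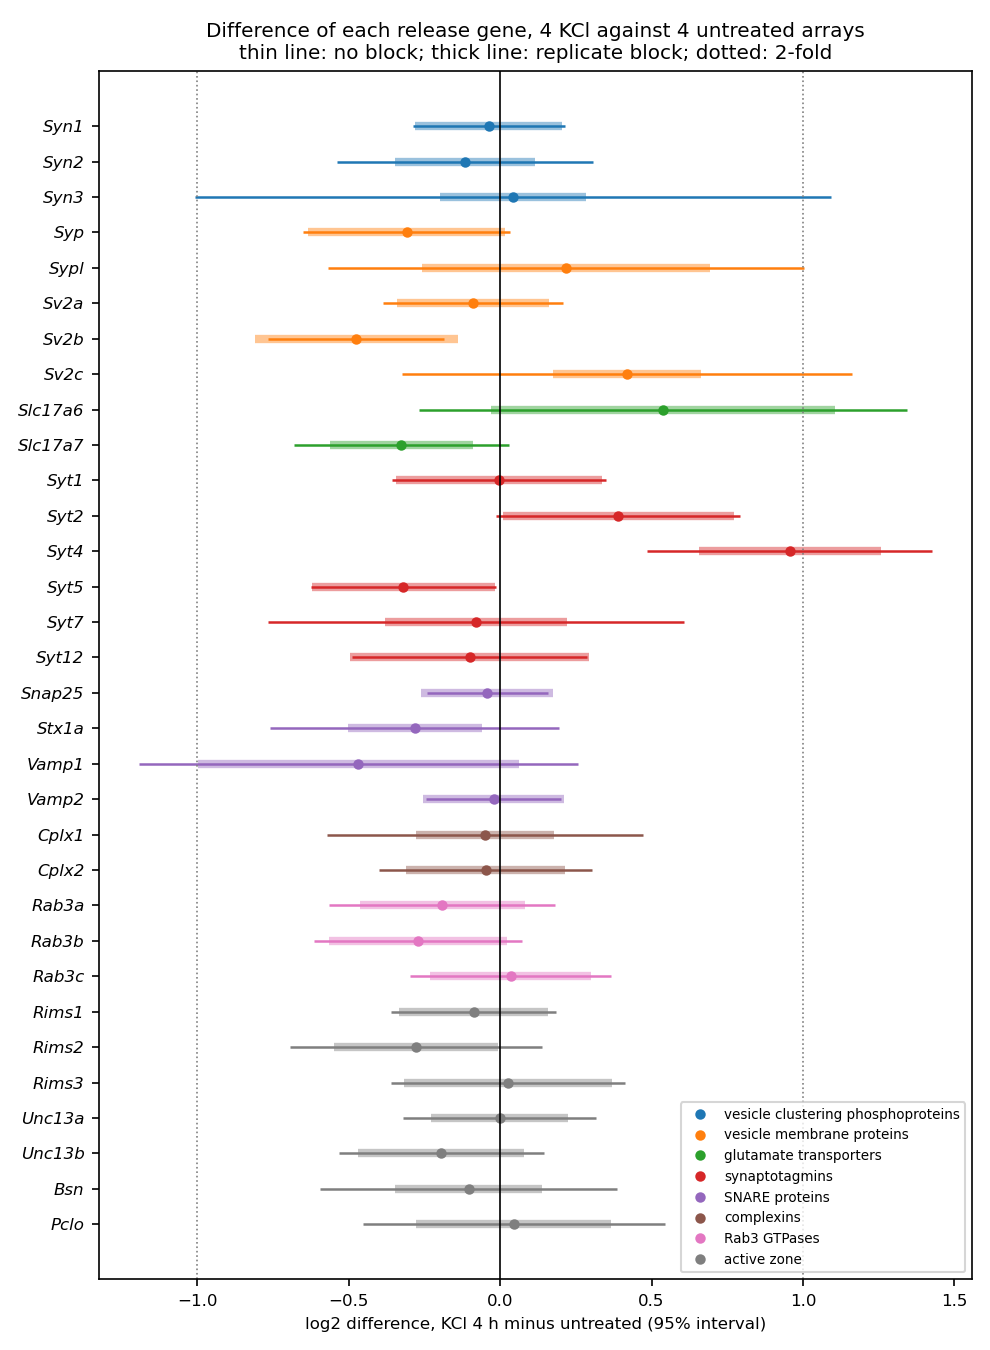
Log2 difference (KCl 4 h minus untreated) of each of the 32 release genes on the horizontal axis, with genes down the page by role; points are means over 4 against 4 arrays, thin lines the 95% interval without and thick lines with the replicate number as a block. The interval of Syt4 lies above 0 and those of Sv2b and Syt5 below 0 in both fits, and 26 thin lines stay inside the dotted lines at a 2-fold difference.

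Array medians over all probe sets were 4.44 to 4.48 on the log2 scale, and the number of arrays limits the precision. The first principal component of all genes (36.6% of the variance) set both arrays numbered 1 apart (scores of -43.2 and -48.6). The second (27.1%) set KCl arrays (-30.7 to -18.8) apart from untreated arrays (21.4 to 30.2). All 8 general neuronal markers were above the array medians in every array, between Stmn2 at 12.35 to 12.68 with KCl and 12.49 to 12.74 without and Elavl4 at 4.79 to 5.42 and 4.75 to 5.16. One of them, Snap25, is a member of the release genes, as Slc17a7 and Slc17a6 are of the glutamatergic list. The 8 summed to a linear signal of 16717 to 19528 in KCl arrays and 18142 to 20176 in untreated arrays, and none of them passed in either fit. Of 8 astrocyte markers, 6 were above the medians in every array, among them Gfap (10.45 to 11.25 with KCl and 10.56 to 11.11 without), while S100b and Aqp9 lay around them. The 8 summed to 5015 to 7657 with KCl and 4942 to 8779 without, a sum carried by its brightest genes. Of 8 endothelial and mural markers, Acta2 stood at 10.79, 10.92, 7.13 and 6.68 in KCl arrays and 11.07, 10.98, 6.59 and 7.18 in untreated arrays. It was high in those numbered 1 and 2, as was Kdr (7.91, 8.34, 5.62 and 5.18 with KCl). The means of same-numbered arrays were also higher there for Pdgfrb and Rgs5, but lower for Pecam1 (4.12, 4.13, 4.42 and 4.42). Cldn5, Tek and Vwf were below the medians in every array. Of 7 oligodendrocyte lineage markers, 4 (Mog, Mag, Pdgfra and Sox10) were below the medians in every array and 2 (Olig1 and Olig2) above, and of 8 microglial markers, 4 (Aif1, Csf1r, Itgam and C1qa) were below and 2 (Cx3cr1 and Cd68) above. Of the progenitor and cycling-cell markers, Pcna passed, as higher after KCl, in both fits, and Pax6 did with the block. That list of 8 summed to 1752 to 2269 with KCl and 1193 to 1610 without. The sum was carried mostly by Pcna (log2 means 10.06 with KCl and 9.25 without). The log2 differences of the list ran between 0.05 for Hes5 and 0.92 for Pax6, and its part in the results was not tested. With the block the GABAergic marker Gad2 passed as lower (log2 difference -0.49), and no other marker of its list passed in either fit. The log2 differences of that list had both signs. Gad1 (1.08), Sst (0.87) and Dlx2 (0.07) were above 0, and Slc32a1 (-0.09), Npy (-0.13) and Lhx6 (-0.62) below. No marker of the other 6 lists (astrocytes, glutamatergic neurons, oligodendrocyte lineage, microglia, endothelial and mural cells, meningeal fibroblasts) passed in either fit. The glutamatergic list summed to 4439, 4664, 5700 and 5863 with KCl and 5522, 5442, 7165 and 6867 without. Its log2 differences were below 0 for Neurod6 (-0.64), Camk2a (-0.46), Slc17a7 (-0.33) and Neurod2 (-0.21). They were above 0 for Slc17a6 (0.54), Nrgn (0.15) and Tbr1 (0.14). The part of this list in the results was not tested.

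Promoters are shown for 3 genes chosen for their motifs or their call: Syn1, the member whose window holds a full cAMP response element, Unc13a, the member with the most copies of its shorter core, and Ppfia1, a scaffold gene outside the list that passed the test. The element is the site of the calcium-responsive factor CREB, background that these arrays do not test. Each window runs from 250 bases before to 50 after a RefSeq start in GRCm38.p6, 5′ to 3′ on the gene's strand, and the capitals mark the motifs found. They lie at chrX:20920869-20921168 (minus strand), chr8:71671708-71672007 (minus strand) and chr7:144553680-144553979 (minus strand), in the order shown.
Syn1: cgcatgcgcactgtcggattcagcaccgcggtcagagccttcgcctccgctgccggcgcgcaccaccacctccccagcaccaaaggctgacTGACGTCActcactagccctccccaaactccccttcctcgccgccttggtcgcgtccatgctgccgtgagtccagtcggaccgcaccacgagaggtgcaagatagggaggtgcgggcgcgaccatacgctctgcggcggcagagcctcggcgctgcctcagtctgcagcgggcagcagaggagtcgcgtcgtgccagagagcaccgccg
Unc13a: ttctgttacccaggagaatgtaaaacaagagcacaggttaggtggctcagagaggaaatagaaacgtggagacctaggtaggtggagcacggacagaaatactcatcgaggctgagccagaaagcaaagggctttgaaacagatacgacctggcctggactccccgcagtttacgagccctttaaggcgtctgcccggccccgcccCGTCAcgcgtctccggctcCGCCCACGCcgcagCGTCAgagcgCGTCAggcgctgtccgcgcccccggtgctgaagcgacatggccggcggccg
Ppfia1: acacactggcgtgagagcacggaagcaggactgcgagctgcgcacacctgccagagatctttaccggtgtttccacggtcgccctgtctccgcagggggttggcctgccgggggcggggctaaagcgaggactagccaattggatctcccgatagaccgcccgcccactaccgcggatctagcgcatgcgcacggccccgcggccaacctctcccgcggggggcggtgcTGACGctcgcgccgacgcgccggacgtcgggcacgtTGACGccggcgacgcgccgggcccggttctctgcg

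The motifs searched, on both strands, were the cAMP response element TGACGTCA, its shorter core TGACG, the AP-1 site TGANTCA and the EGR site GCGNGGGCG. A full element holds 2 shorter cores, which overlap it and were counted too. Windows were found for 24 of the 32 members, 33 windows in all, and not for Syt4, Syt5, Syt7, Syt12, Snap25, Vamp2, Syn3 and Rims2. A full element was in 1 member window, that of Syn1, at 159 to 152 bases before the start, and in 1.79% of all 32851 windows. Shorter cores were in 9 of the 33 member windows (Syn1, Unc13a, Cplx1, Rab3a, Rab3b, Slc17a6, Stx1a, Sypl and Syt2) and in 20.8% of all windows. An AP-1 site was in 2 of the 33 member windows (Sypl and Syt2) and in 7.81% of all windows. An EGR site was in 3 of the 33 (Unc13a, Cplx1 and Syn2) and in 5.55% of all windows. In the window of Unc13a the capitals are 3 shorter cores and 1 EGR site, and in that of Ppfia1 they are 2 shorter cores. Beside these letters, the log2 difference was -0.04 for Syn1, 0.00 for Unc13a and 1.16 for Ppfia1. A match describes the sequence and says nothing of binding.

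Synapsins are phosphoproteins on the vesicle surface that hold vesicles in a reserve cluster and let go of them when phosphorylated. None of the 3 passed. Syn1 stood at 10.34, 10.46, 10.50 and 10.56 in KCl arrays and 10.30, 10.51, 10.73 and 10.46 in untreated arrays. The groups overlapped throughout, and the 95% interval of the fold (KCl over untreated) was 0.818 to 1.16. For Syn2 the means were 10.92 ± 0.24 with KCl and 11.04 ± 0.33 without (SD, n = 4 each), with a lower KCl value, by 0.04 to 0.29, in 4 of 4 same-numbered pairs. Syn3, the least studied of the family, stood at 7.04, 8.61, 8.64 and 8.70 in KCl arrays and 7.13, 8.40, 8.72 and 8.57 in untreated arrays. It was low in both arrays numbered 1 and the KCl array differed from its partner by -0.09, 0.21, -0.08 and 0.13. Its standard error was 0.46 without and 0.10 with the block.

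Among vesicle membrane proteins, Sv2b had the lowest log2 difference of all members, and Sv2c had one of the opposite sign. SV2 proteins are transporter-like glycoproteins of the vesicle that support calcium-triggered release, and SV2A is the binding site of the antiepileptic drug levetiracetam. Sv2b (probe set 17492220) stood at 9.71, 9.81, 9.40 and 9.43 in KCl arrays, against 10.02, 9.95, 10.28 and 9.99 in untreated arrays. Every KCl array was below every untreated array. The fold was 0.719 (95% interval 0.588 to 0.880), but the limma adjusted p was 0.117, so the difference did not pass over all genes. Sv2c stood at 5.89, 5.87, 6.87 and 6.59 in KCl arrays and 5.38, 5.53, 6.63 and 6.02 in untreated arrays. The groups overlapped because arrays numbered 3 and 4 were brighter in both, yet the KCl array was higher in 4 of 4 pairs (log2 difference 0.42, SE 0.32, adjusted p = 0.73). Sv2a averaged 8.80 ± 0.19 with KCl and 8.89 ± 0.17 without (SD, n = 4 each), a log2 difference of -0.09.

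Only Sv2b and Syt4 of the 32 members had groups that did not overlap, 1 lower and 1 higher. Over all genes 8.16% had groups apart, 3.83% with KCl higher and 4.33% with KCl lower.

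Synaptophysin (Syp) is an abundant tetraspan protein of the vesicle membrane that binds the SNARE protein Vamp2. It stood at 9.99, 10.57, 10.65 and 10.45 in KCl arrays, against 10.73, 10.86, 10.69 and 10.62 in untreated arrays. The KCl array was lower in every pair, by 0.75 in the pair numbered 1 and by 0.04 to 0.29 in the others, and the groups overlapped by a single pair of values (adjusted p = 0.446). A second Syp probe set, at 3.69 to 4.27 over all arrays, lay below the array medians. Its relative Sypl, which is also made outside neurons, differed by 0.99 in the pair numbered 4 and by -0.15 to 0.11 in the other 3.

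The vesicular glutamate transporters load the vesicle, and the log2 differences of the 2 had opposite signs. Slc17a7 (VGLUT1), the main transporter of mature hippocampal and cortical terminals, stood at 9.36, 9.48, 9.98 and 9.51 in KCl arrays, against 9.71, 9.81, 10.13 and 9.98 in untreated arrays. It was lower in 4 of 4 pairs, by 0.15 to 0.47 (adjusted p = 0.437). Slc17a6 (VGLUT2), prominent in young and subcortical neurons, stood at 7.75, 7.55, 9.04 and 8.84 in KCl arrays, against 7.27, 7.92, 8.05 and 7.79 in untreated arrays. Both KCl arrays numbered 3 and 4 were above all untreated arrays, while the KCl array numbered 2 was below its partner (log2 difference 0.54, SE 0.35, adjusted p = 0.645). Within an array, the log2 value of Slc17a6 minus that of Slc17a7 was -1.60, -1.92, -0.94 and -0.67 with KCl and -2.44, -1.89, -2.08 and -2.20 without. That contrast was chosen after the values were seen and was not tested.

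**Figure D2:**
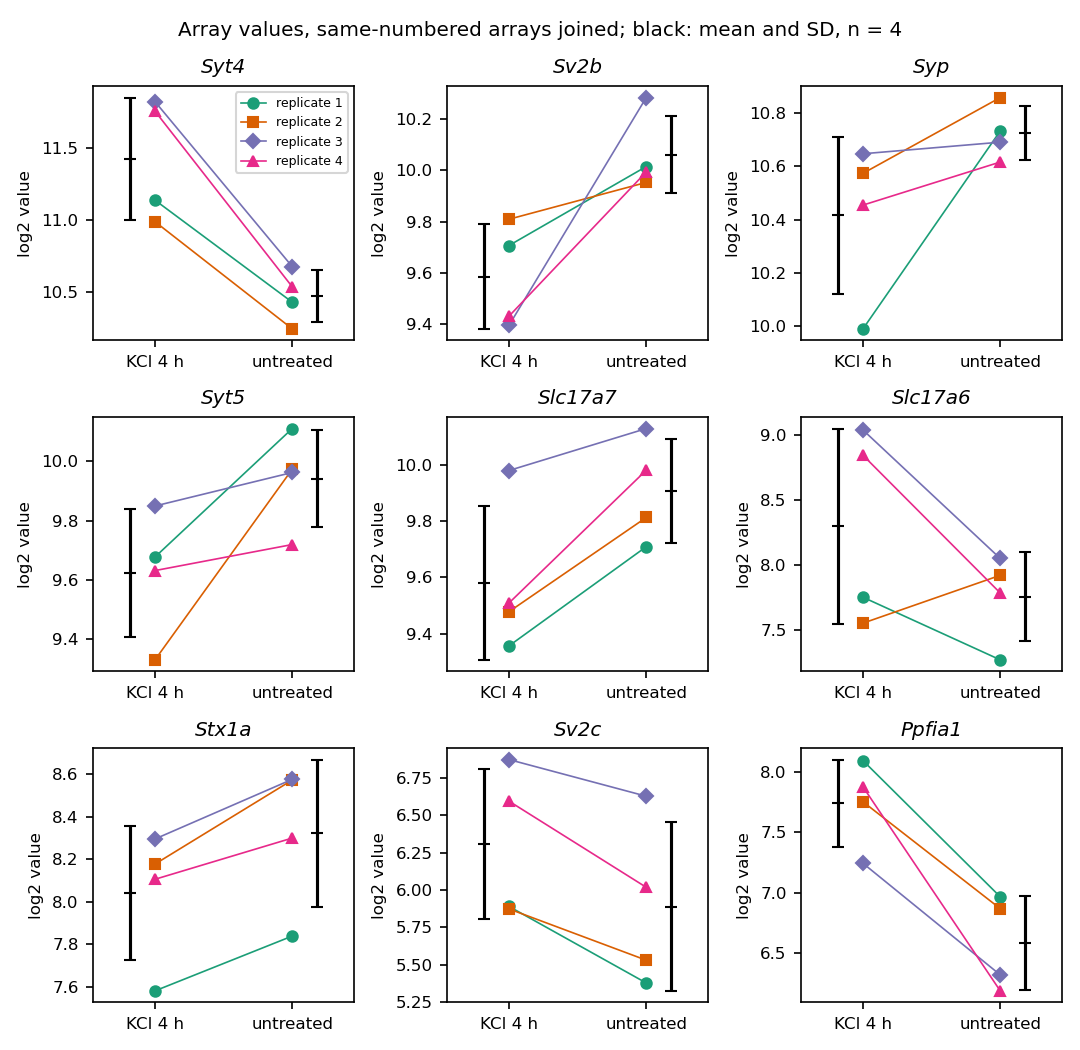
Log2 values (vertical axis) of 8 members and of Ppfia1 in each array, KCl 4 h on the left and untreated on the right of each panel; lines join same-numbered arrays, and black marks give the mean and SD of 4 arrays. All 4 lines of Syt4, Sv2c and Ppfia1 are higher with KCl, all 4 of Sv2b, Syp, Syt5, Slc17a7 and Stx1a are lower, and Slc17a6 has 3 higher and 1 lower.

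Of the 6 synaptotagmins, 2 had log2 differences above 0 and 4 below. They carry paired C2 domains that bind membranes, in most members with calcium. In Syt4 a substitution in the first such domain weakens calcium binding, the protein sits on dense-core and Golgi-derived vesicles, and in rat PC12 cells the gene is known to be induced by depolarisation. Syt4 (probe set 17353232) stood at 11.14, 10.99, 11.82 and 11.76 in KCl arrays, against 10.43, 10.24, 10.67 and 10.53 in untreated arrays. Every KCl array was above every untreated array. The log2 difference was 0.96 (SE 0.21), and within pairs it was 0.71, 0.75, 1.15 and 1.22. With the block the SE was 0.13 and the interval of the fold 1.58 to 2.39.

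The call of Syt4 with the block was lost without the pair numbered 3 or 4. The limma adjusted p was 0.08 without the pair numbered 3 and 0.0582 without that numbered 4, and 0.0316 and 0.036 without those numbered 1 and 2. Without the block, the adjusted p was 0.0409 when KCl replicate 2 was left out and 0.0598 to 0.147 when any other single array was. The same arrays numbered 3 and 4 had the lower Acta2 and Kdr given above, though Pecam1 of the same list went the other way. Acta2 and Kdr were not the only markers to split the numbers so. By the means of same-numbered arrays, Postn was also lower there (5.32, 5.28, 3.96 and 4.01). Sst (6.53, 6.65, 8.27 and 8.06) and Neurod2 (7.28, 7.66, 8.40 and 8.46) were higher. The part of culture makeup in the size of the Syt4 difference was not tested. The difference had the same sign in each of the 4 pairs.

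Other probe sets of Syt4 showed the difference unequally. Probe set 17548044 stood at 5.12, 5.39, 6.70 and 6.58 in KCl arrays, against 4.57, 5.16, 5.28 and 5.40 in untreated arrays. Probe set 17349132 stood at 4.03, 4.01, 5.98 and 5.92 in KCl arrays, against 3.82, 3.91, 4.31 and 4.06 in untreated arrays. In the second of these, only KCl arrays numbered 3 and 4 lay clearly above the array medians. Tested on their own, neither passed (limma adjusted p = 0.465 and 0.542), and the mean of all 3 probe sets gave a log2 difference of 0.92 with an adjusted p of 0.286.

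**Figure D3:**
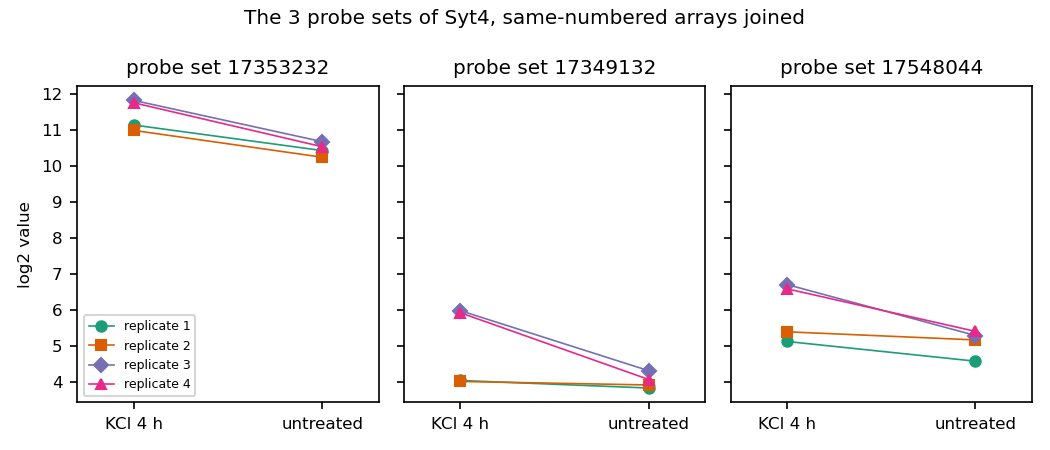
Log2 values (vertical axis, shared) of the 3 probe sets annotated to Syt4, KCl 4 h left and untreated right in each panel, with same-numbered arrays joined. Probe set 17353232, the one used for the gene, runs between 10.24 and 11.82, and in the other 2 the replicates 3 and 4 show the wider differences.

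Syt1, the fast calcium sensor of hippocampal release, stood at 11.44, 11.61, 11.48 and 11.74 in KCl arrays and 11.23, 11.67, 11.92 and 11.46 in untreated arrays. The groups overlapped fully, with a log2 difference of 0.00 (95% interval -0.36 to 0.35). Syt5, a further calcium-binding member, stood at 9.68, 9.33, 9.85 and 9.63 in KCl arrays, against 10.11, 9.97, 9.96 and 9.72 in untreated arrays. It was lower in 4 of 4 pairs (log2 difference -0.32, SE 0.13, adjusted p = 0.356). Syt7, the slow high-affinity sensor linked to facilitation, averaged 7.36 ± 0.51 with KCl and 7.44 ± 0.48 without (SD, n = 4 each), with 2 pairs higher and 2 lower. Syt12, which does not bind calcium, averaged 5.03 ± 0.30 with KCl and 5.14 ± 0.22 without. Syt2, the fast sensor of hindbrain synapses, lay near the array medians at 4.27 to 4.73 with KCl and 3.77 to 4.49 without (log2 difference 0.39, adjusted p = 0.403).

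All 4 SNARE genes had log2 differences below 0, between -0.47 for Vamp1 and -0.02 for Vamp2, and none passed. Of all 22180 genes, 11724 were below 0. Snap25 and Stx1a encode the SNAREs of the plasma membrane, and Vamp1 and Vamp2 those of the vesicle. Snap25 stood at 12.36, 12.35, 12.24 and 12.24 in KCl arrays and 12.47, 12.35, 12.33 and 12.21 in untreated arrays, within 0.114 of each other in every pair. Its fold had a 95% interval of 0.845 to 1.12. Vamp2, the main vesicle SNARE of the forebrain, was as close, at 9.74 ± 0.12 with KCl and 9.76 ± 0.11 without (SD, n = 4 each; interval 0.844 to 1.15). Stx1a stood at 7.58, 8.18, 8.30 and 8.11 in KCl arrays and 7.84, 8.57, 8.58 and 8.30 in untreated arrays. It was lower in each pair, by 0.19 to 0.40 (adjusted p = 0.709). Vamp1, dimmer here, stood at 6.19, 5.11, 5.94 and 5.12 in KCl arrays and 6.71, 6.08, 5.55 and 5.90 in untreated arrays, with 3 pairs lower and 1 higher. A further probe set names both Vamp1 and the transcript E130112N10Rik and was not used.

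Complexins, small proteins that hold assembled SNAREs until calcium arrives, did not pass. Cplx1 averaged 9.19 ± 0.35 with KCl and 9.24 ± 0.38 without, and Cplx2 8.09 ± 0.23 with KCl and 8.14 ± 0.23 without (SD, n = 4 each). Their log2 differences were both -0.05. Like Syn3, Cplx1 was lowest in both arrays numbered 1, at 8.67 with KCl and 8.70 without, against 9.22 to 9.54 in the other 6.

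Rab3 proteins are GTPases that ride on vesicles and link them to RIM at the active zone. Rab3a, the main form in brain, stood at 10.01, 10.48, 10.63 and 10.31 in KCl arrays and 10.33, 10.38, 10.79 and 10.69 in untreated arrays (adjusted p = 0.772). Rab3b stood at 6.49, 6.80, 6.54 and 6.37 in KCl arrays and 6.52, 6.91, 7.13 and 6.73 in untreated arrays, lower in 4 of 4 pairs with overlapping groups (log2 difference -0.27, SE 0.15, adjusted p = 0.544). Rab3c averaged 9.79 ± 0.14 with KCl and 9.75 ± 0.27 without (SD, n = 4 each), and its other probe set lay near the array medians at 4.15 to 4.69.

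None of the 7 active zone genes passed, and their log2 differences ran between -0.28 and 0.05. RIM proteins gather calcium channels and vesicles, Munc13 proteins (Unc13a, Unc13b) open syntaxin for priming, and Bassoon (Bsn) and Piccolo (Pclo) are giant scaffolds of the zone. Rims2 stood at 6.97, 7.33, 7.48 and 7.09 in KCl arrays and 7.01, 7.64, 7.70 and 7.64 in untreated arrays, lower in each pair by 0.04 to 0.55 (adjusted p = 0.645). Rims1 was at 8.97 ± 0.11 with KCl and 9.05 ± 0.20 without, and Rims3, a short form, at 5.25 ± 0.35 with KCl and 5.22 ± 0.09 without (SD, n = 4 each). Unc13a, whose promoter is shown above, stood at 9.12, 9.44, 9.53 and 9.51 in KCl arrays and 9.09, 9.60, 9.46 and 9.46 in untreated arrays. Pairs differed by no more than 0.16, and the fold had a 95% interval of 0.801 to 1.25. Unc13b averaged 7.54 ± 0.28 with KCl and 7.73 ± 0.14 without (SD, n = 4 each), lower in 4 of 4 pairs and by 0.52 in the pair numbered 1. Bsn stood at 7.65, 8.24, 8.33 and 8.15 in KCl arrays and 7.70, 8.18, 8.61 and 8.29 in untreated arrays. Pclo stood at 9.29, 9.76, 9.69 and 9.68 in KCl arrays and 8.97, 9.48, 9.82 and 9.97 in untreated arrays, higher in 2 pairs and lower in 2. A second Bsn probe set lay below the array medians, at 3.78 to 4.21.

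Within same-numbered pairs, 10 of the 32 members were lower with KCl in 4 of 4 pairs (Syn2, Syp, Sv2b, Slc17a7, Syt5, Stx1a, Rab3b, Rims1, Rims2 and Unc13b), and 2 were higher in 4 of 4 (Syt4 and Sv2c). Over all genes these shares were 13.2% and 11%. For Rims1 the difference was only -0.011, -0.003 and -0.012 in 3 pairs, and none of the 10 passed in either fit.

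**Figure D4:**
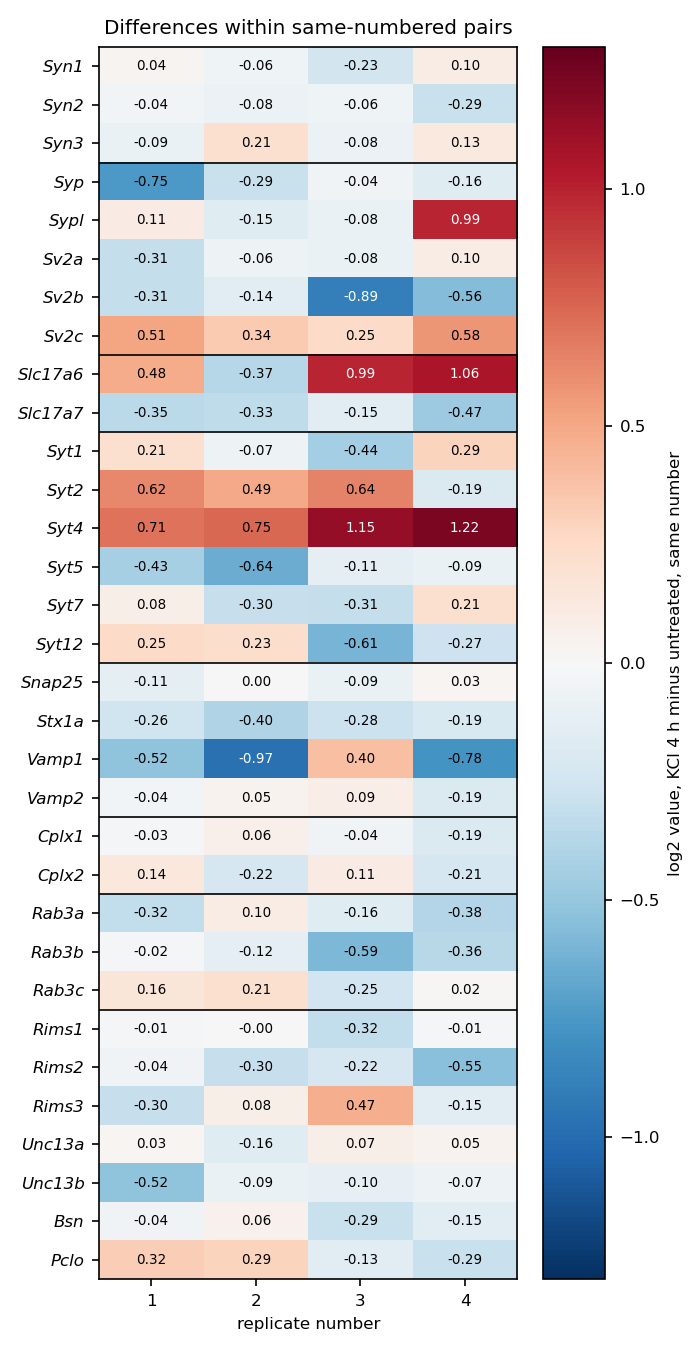
Log2 value of the KCl array minus that of the untreated array of the same number (colour and printed values), for each member down the page, grouped by role between the black lines, and each replicate number across. Syt4 is red in all 4 columns (0.71 to 1.22), while 10 genes, among them Sv2b and Slc17a7, are below 0 in all 4.

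Many members varied with the replicate number in both groups. The mean of the same-numbered arrays was lowest for number 1 in 23 of 32 members (71.9%), against 31% of all genes. For Syn3 it was 7.09, 8.51, 8.68 and 8.63 over numbers 1 to 4, and for Stx1a 7.71, 8.38, 8.44 and 8.20. In a principal component analysis of the members alone, the first component took 52.1% of the variance and ran by number, with scores of -1.95 and -2.38 for the arrays numbered 1 and -0.13 to 1.33 for the other 6. The second took 24.4%. The standard error was smaller with the block for 30 of 32 members, against 14199 of all 22180 genes. Its median over the members was 0.11 with the block and 0.17 without, and over all genes 0.12 and 0.14. The astrocyte markers averaged 8.38 and 8.45 on the log2 scale in the KCl and untreated arrays numbered 1, and 7.53 to 8.04 in the other 6. By the means of same-numbered arrays, Aldh1l1 (6.95, 7.34, 7.41 and 6.53) was the only astrocyte marker not highest in number 1. The general neuronal markers averaged 9.63 and 9.52 in those numbered 1 and 9.79 to 10.03 in the other 6. Of these, Snap25 went the other way (means of 12.41, 12.35, 12.28 and 12.22) and Nefl was lowest in number 2 (10.25). Map2, Rbfox3, Tubb3, Nefm, Stmn2 and Elavl4 were lowest in number 1. The part of these markers in the spread between numbers was not tested.

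The wider vesicle cycle, 90 measured genes of 96 listed outside the members, gave 1 call in the planned fit, a rise. Of all genes 2.36% passed in that fit (1.34% higher). With the block it gave 1, also a rise, against 4.44% of all genes (2.43% higher). The gene called in both fits was Ppfia1 (probe set 17498426), which encodes liprin-alpha-1, a scaffold that binds receptor tyrosine phosphatases. It stood at 8.09, 7.75, 7.24 and 7.88 in KCl arrays, against 6.97, 6.87, 6.32 and 6.19 in untreated arrays. The groups did not overlap, and the log2 difference was 1.16 (SE 0.23, limma adjusted p = 0.0438, or 0.0148 with the block). Leaving out single arrays ended that call in 6 of 8 cases (KCl replicates 1, 2 and 4, and untreated replicates 2, 3 and 4), with an adjusted p of up to 0.125. The other liprin-alpha genes and RIM-binding, ELKS and Rab3-cycle genes of its list of 18 did not pass. None of 33 SNARE partners and fusion regulators, 14 vesicle membrane proteins and transporters or 25 endocytosis genes passed in either fit. Before adjustment, 5, 3 and 0 of these had a p under 0.05, as did 2 of the 18 active zone genes, which makes 10 of 90 (11.1%), against 13% of all genes. With the block the counts were 11, 4, 2 and 2, or 19 of 90, against 18.2% of all genes. The median log2 difference over all 90 was -0.03.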

How the data were processed

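Hippocampal cultures were read on 8 Affymetrix arrays, 4 with 55 mM KCl for 4 h and 4 untreated, placed in groups by title. The authors deposited 1 log2 value for each probe set and array. RMA and Partek are named, without settings, in the submitters' processing notes, and for the array build and any batch adjustment nothing was stated. RMA compresses differences near background. Of 34472 probe sets, 23521 carried 1 symbol, 1814 several (not used for any gene) and 9137 were unnamed here. The brightest probe set stood for each of 22180 genes.

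KCl was set against untreated by two-sided moderated tests (limma 3.58.1 under R 4.3.3), with Benjamini-Hochberg adjustment over all 22180 genes and a threshold of 0.05. Intervals are 95% and moderated. The fits were tested on simulated data. All 32 members are named, and of the wider lists each gene past the threshold in either fit. Members and lists were chosen with earlier results of these data known.

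Same-numbered arrays correlated in their deviations from group means, across genes, at 0.64, 0.23, 0.41 and 0.37, against 0.30 at most between arrays of different numbers, and every array correlated best with its own number. Over the 32 members alone the values were 0.85, 0.39, 0.13 and 0.25, against 0.57 at most between different numbers, and 4 of 8 arrays correlated best with their own. As each same-number value was above 0.1, the numbers were taken as pairs, although no label ties a number to a litter or day. The replicate number was therefore also fitted as a block. Promoter windows are from RefSeq, GRCm38.p6. Figures were drawn with matplotlib 3.10.9.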

Additional observations from a re-analysis of the deposited data

Results flagged for a closer look

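A single array stood far from the other 3 of its group in 2 of the 66 groups of 4 values that were checked (32 members and Ppfia1, in each treatment). Chance alone flags about 1 group in 20. Syn3 in KCl replicate 1 was at 7.04, against 8.61 to 8.70 in the other KCl arrays. Rims2 in untreated replicate 1 was at 7.01, against 7.64 to 7.70 in the other untreated arrays. In both cases the same-numbered array of the other group was low as well, at 7.13 for Syn3 in untreated replicate 1 and 6.97 for Rims2 in KCl replicate 1.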

How the results depend on the processing

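Over 21 alternatives no member passed as lower. The number of members that passed as higher was 0 as planned and 1, Syt4, with the replicate block, among genes brighter than the median gene (limma adjusted p = 0.0393), with trended and robust eBayes (0.0222), and with the block but without both arrays numbered 1 or 2. It was 0 to 1 over the fits that left out single arrays. Fits with the block and without the pair numbered 2, 3 or 4 were chosen after seeing the data. Of 671 values of members under alternatives, 665 stayed on the same side of the threshold, the other 6 all being Syt4. A change of sign, always in a member that passed in neither fit, was seen 62 times in 16 members, the largest of which differed by 0.22. The median log2 difference over the members was -0.16 to 0.00 over the fits that left out single arrays, and the planned value was -0.06. The genes of the wider lists that passed as higher numbered 1 as planned, 2 with array medians centred or with array weights (Cplx3 joined Ppfia1), and 0 when every probe set was tested on its own or without both arrays numbered 1. With the block they numbered 2 without the pair numbered 2 or 4 and 0 without that numbered 3, and they were 0 to 1 over fits that left out single arrays. The cause was not tested. Centring moved the median of all genes to 0.02. Over all genes, 524 passed as planned, 985 with the block, and 186 to 501 when single arrays were left out. With fewer arrays a fit has less power by construction. Signal over background could not be read from these values.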

Other observations

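Beyond the genes named by rule, Snap23 and Stx3 of the wider lists were chosen after their values were seen. Snap23 is the SNAP-25 relative used for fusion outside nerve terminals. It stood at 6.90 to 8.01 in KCl arrays, against 5.89 to 7.14 in untreated arrays. It was higher in the pairs numbered 1 to 3 and lower in that numbered 4 (log2 difference 1.28, SE 0.33, limma adjusted p = 0.101, or 0.122 with the replicate block). Stx3, a syntaxin of apical, ribbon-synapse and dendritic membranes, stood at 6.65, 6.59, 7.16 and 7.03 in KCl arrays, against 5.57, 6.44, 6.27 and 5.86 in untreated arrays. Its groups did not overlap (log2 difference 0.82, SE 0.21, adjusted p = 0.106, or 0.0575 with the block). Of the 90 wider genes, 4 had groups apart with KCl higher (Stx3, Cplx3, Ppfia1 and Rab3gap2) and 2 with KCl lower (Syt11 and Syngr3). Over all genes these shares were 3.83% and 4.33%. With the block, Stx3 passed when the pair numbered 2 was left out, and Snap23 passed when that numbered 4 was.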
